A study of Mus musculus with 16 samples.

Results

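The 7 genes described here, Rtp1, Rtp2, Reep1, Ric8b, Gfy, Stoml3 and Umodl1, are named in work on how olfactory sensory neurons bring odorant receptors and transduction proteins to their cilia. They were taken by annotated symbol. Each of the 7 genes had 1 probeset, so 7 of the 22206 gene probesets of the Clariom S array were followed.

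Expression was measured on 16 arrays of cells sorted from the olfactory mucosa of S100a5-tauGFP mice. In these mice green fluorescent protein (GFP) reports S100a5, a gene whose expression in olfactory sensory neurons depends on their activity. Mice of both sexes, 7 to 12 weeks old and 24 in all, were kept singly for 40 h in chambers flushed with clean air at 3.1 L/min, and pulses of 10 s every 20 min began at 26 h. The 4 groups, each of 4 arrays, came from mice that received either odorant pulses or filtered air (vehicle), each sorted into a GFP+ and a GFP- fraction. All groups carried the reporter and all breathed clean air between pulses. Each array held cells pooled from 3 mice, and 24 mice in pools of 3 make 8 pools, so the GFP+ and GFP- arrays of one treatment and number were taken to share a pool. Bourgeonal is the odorant in the sample labels and indole in the series title, so the text says only odorant.

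Odorant receptors are seven-transmembrane proteins that are retained in the endoplasmic reticulum of most cells, and olfactory sensory neurons have accessory proteins that let them leave it. From there receptors and transduction proteins pass through the Golgi and along the dendrite into the cilia, where odorants are bound. Receptor binding activates the G protein Golf, Golf activates adenylyl cyclase 3 (Adcy3), and cyclic AMP opens the channels that depolarise the cell. Rtp1 and Rtp2 are receptor-transporting proteins that promote the surface expression of odorant receptors. Reep1 is a receptor expression-enhancing protein that shapes endoplasmic reticulum membrane. Ric8b is a chaperone and exchange factor of Gnal, the alpha subunit of Golf. Gfy (Goofy) is a Golgi protein needed for normal placement of Adcy3 in the cilia, Stoml3 is a stomatin-family protein of the neuron's cilia and vesicles, and Umodl1 (olfactorin) is a zona pellucida domain protein of olfactory neurons.

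RefSeq promoter windows (mouse build GRCm38.p6, 250 bases before to 50 after the annotated start) were found for 6 of the 7 genes, all but Rtp1. They were searched on both strands for the core bound by Olf-1/EBF factors, TCCC and GGGA with any 2 bases between them, and for TAATNA, a homeodomain core of the Lhx2 and Emx2 type. The first stood in 297 of 32851 windows (0.904%) and the second in 8692 (26.5%). The 3 promoters that held a motif are printed because both factor classes are known from olfactory neuron genes, and the 250 bases before the start are given 5′ to 3′ on the gene's strand with the motif in capitals. Gfy (chr7:45179598-45179847, minus strand) held the EBF core, and Stoml3 (chr3:53488457-53488706, plus strand) and Umodl1 (chr17:30954433-30954682, plus strand) held the homeodomain core.
Gfy: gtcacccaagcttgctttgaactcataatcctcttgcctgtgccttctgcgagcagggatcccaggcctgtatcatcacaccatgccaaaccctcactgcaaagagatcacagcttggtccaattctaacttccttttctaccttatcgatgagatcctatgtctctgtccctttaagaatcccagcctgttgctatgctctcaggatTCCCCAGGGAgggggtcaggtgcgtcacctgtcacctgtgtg
Stoml3: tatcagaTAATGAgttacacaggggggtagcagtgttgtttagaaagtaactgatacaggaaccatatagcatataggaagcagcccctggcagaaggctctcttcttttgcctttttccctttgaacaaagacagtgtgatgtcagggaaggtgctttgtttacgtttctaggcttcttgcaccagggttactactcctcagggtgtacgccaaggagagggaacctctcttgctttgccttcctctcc
Umodl1: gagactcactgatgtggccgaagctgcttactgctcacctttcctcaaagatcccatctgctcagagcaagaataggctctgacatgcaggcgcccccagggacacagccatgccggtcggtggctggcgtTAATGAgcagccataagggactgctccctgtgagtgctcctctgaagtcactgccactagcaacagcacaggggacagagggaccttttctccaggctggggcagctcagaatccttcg
Counted from the annotated start, the Gfy match began at -42, the Stoml3 match at -243 and the Umodl1 match at -119. The motifs did not overlap, and the windows of Rtp2, Reep1 and Ric8b held neither. A match describes these letters and is not a measured binding site.

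Values are log2 probeset signals as deposited, and signals of different probesets are not on a common scale of transcript number. Array medians lay between 6.29 and 6.38 for the GFP+ fraction and between 6.64 and 6.76 for the GFP- fraction. The background level, which is the 95th percentile of 23 control probesets that match no mouse sequence, was 6.57 to 6.87, and 46.7% to 50.9% of probesets exceeded it. Arrays of one group correlated across genes, which are no replicates of each other, with r of 0.987 to 0.994. All 7 trafficking genes exceeded background on 16 of 16 arrays. The mature neuron marker Omp was at 18.67 ± 0.011 (SD, n = 4) in vehicle GFP+ cells and 18.63 ± 0.072 in vehicle GFP- cells. In bulk samples, fewer cells of a type and less RNA per cell cannot be told apart.

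Rtp1 read 17.11, 17.06, 17.11 and 17.14 in vehicle GFP+ cells, in the order of replicates 1 to 4, and 17.07, 17.01, 16.91 and 17.09 in vehicle GFP- cells. With odorant it read 17.05, 17.07, 17.02 and 17.18 in GFP+ cells and 16.87, 17.01, 16.96 and 16.98 in GFP- cells. The fractions overlapped with vehicle and stood apart by a small margin with odorant, and the whole spread over 16 arrays was narrow. Rtp2 read 15.37, 15.31, 15.29 and 15.53 in vehicle GFP+ cells and 15.05, 15.07, 15.19 and 15.13 in vehicle GFP- cells. With odorant the GFP+ arrays read 15.28, 15.45, 15.30 and 15.41 and the GFP- arrays 14.90, 15.08, 15.26 and 15.20. Every Rtp2 value of GFP+ cells lay above every value of GFP- cells within each treatment.

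Reep1 varied most between replicates. Its values were 13.55, 13.48, 13.37 and 13.82 in vehicle GFP+ cells and 13.28, 13.48, 13.10 and 13.12 in vehicle GFP- cells. They were 13.80, 13.95, 13.57 and 13.52 in odorant GFP+ cells and 13.12, 13.88, 13.43 and 13.55 in odorant GFP- cells. The fractions overlapped in both treatments, and the lowest and the highest odorant GFP- arrays were further apart than any group means. Its SD between arrays, pooled over the 4 groups, was 0.23, against 0.063 for Rtp1.

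Ric8b, the chaperone of Golf alpha, read 17.72, 17.59, 17.84 and 17.42 in vehicle GFP+ cells and 17.38, 17.34, 17.43 and 17.25 in vehicle GFP- cells. With odorant the values were 17.63, 17.57, 17.53 and 17.49 in GFP+ cells and 17.33, 17.43, 17.38 and 17.31 in GFP- cells. The fractions stood apart with odorant, and with vehicle only GFP+ replicate 4 fell within the GFP- range. Gfy, the Golgi protein, read 18.71, 18.78, 18.81 and 18.77 in vehicle GFP+ cells and 18.40, 18.52, 18.55 and 18.32 in vehicle GFP- cells. With odorant it read 18.79, 18.87, 18.66 and 18.64 in GFP+ cells and 18.49, 18.73, 18.67 and 18.64 in GFP- cells. The fractions stood apart with vehicle and overlapped with odorant.

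Umodl1 read 16.95, 16.91, 17.12 and 16.87 in vehicle GFP+ cells and 16.81, 16.60, 16.56 and 16.77 in vehicle GFP- cells. With odorant its values were 17.00, 17.01, 16.75 and 16.82 in GFP+ cells and 16.50, 16.98, 16.63 and 16.84 in GFP- cells. As for Gfy, the fractions were separate with vehicle and overlapped with odorant. Stoml3 held the highest value of all gene probesets on 16 of 16 arrays, between 19.34 and 19.44, and 5 arrays gave exactly the same value. Its range of 0.099 at the end of the scale leaves little room for a difference to show, so its small differences cannot be read as equal expression.

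**Figure D1:**
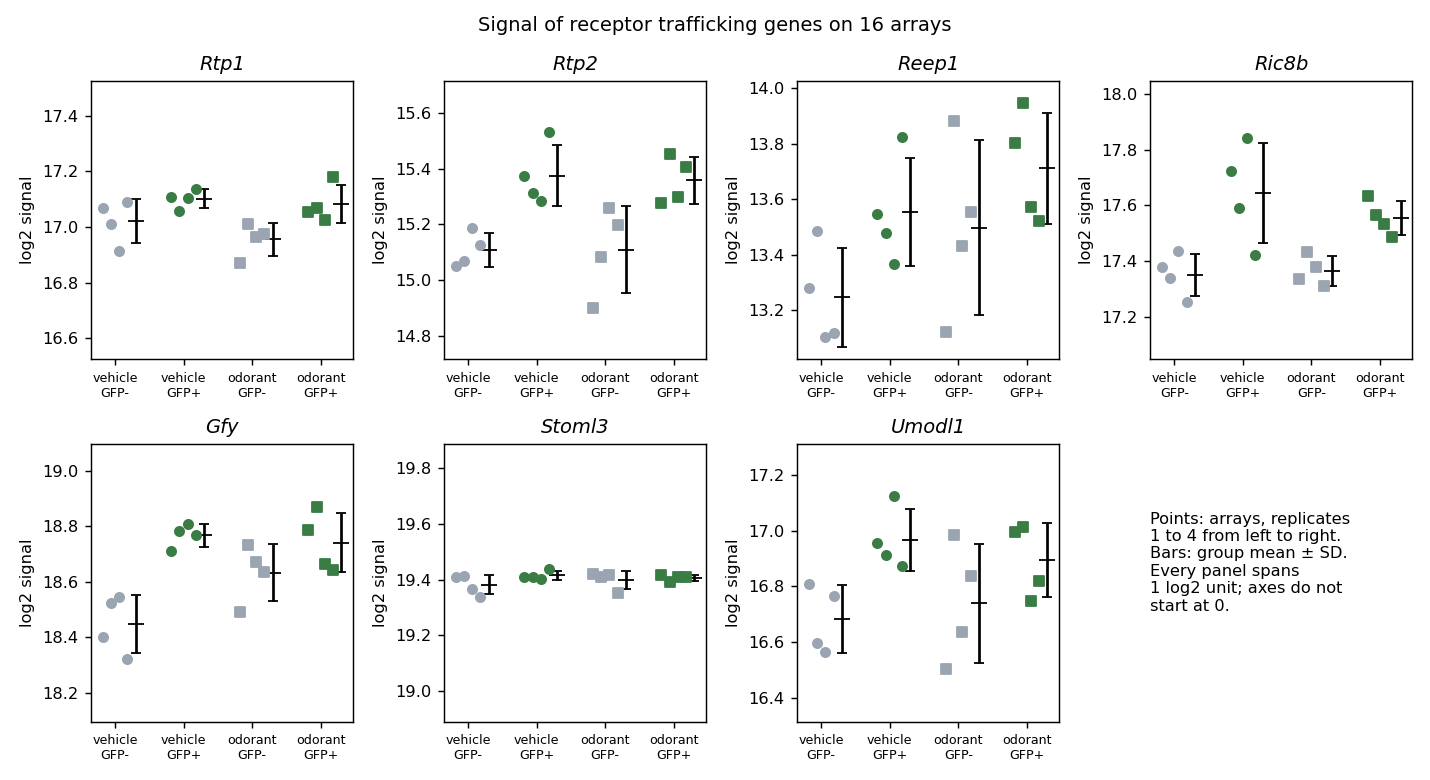
Deposited log2 signal of the 7 trafficking genes in each of 16 arrays (4 groups of 4), with the group mean and SD. Rtp2 shows GFP+ arrays above GFP- arrays in both treatments, while Stoml3 stays between 19.34 and 19.44 in all groups.

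The first question was whether these genes differ between cells that do and do not carry the activity reporter. In vehicle mice all 7 had higher means in GFP+ cells, with a median difference of 0.28 log2 units against 0.082 over all gene probesets, but none passed the test. Gfy had the largest difference, at 18.77 ± 0.041 (SD, n = 4) in GFP+ cells and 18.45 ± 0.10 in GFP- cells. That is 0.32 log2 units or 1.25-fold (SE 0.12, 95% interval 0.045 to 0.59, limma adjusted p = 0.11). Reep1 differed by 0.31 (adjusted p = 0.20 in limma), Ric8b by 0.29 (0.18), Umodl1 by 0.28 (0.17) and Rtp2 by 0.27 (0.18). The differences of Rtp1, 0.081 (limma adjusted p = 0.70), and of Stoml3, 0.033 (0.88), were the smallest. So 0 of 7 were called higher, where limma called 17.7% of all probesets (7.76% higher, 9.97% lower), while Gfy, 1 of 7, reached an unadjusted p under 0.05, as 30.7% of all probesets did. The largest upper bound of the 7 intervals was 0.65, or 1.57-fold.

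In Rtp2, Gfy and Umodl1, 3 of 7, all 4 vehicle GFP+ arrays lay above all 4 vehicle GFP- arrays, which held for 11.9% of all probesets. The spread that limma gave these probesets was larger than their own. The SD between arrays, pooled over the 4 groups, had a median of 0.279 over all probesets and 0.144 over the 426 with a mean of 15 or more, against 0.11 for Rtp2, 0.093 for Gfy and 0.15 for Umodl1. With the prior spread allowed to follow signal (the intensity trend of limma), 4 of 7 passed. These were Gfy (adjusted p = 0.0038), Umodl1 (0.035), Ric8b (0.039) and Rtp2 (0.048), beside 8.38% of all probesets called higher. The count of calls among the 7 therefore depends on how the spread is shared between probesets.

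The scale mattered as well. When each array's median was subtracted, the median difference over all probesets moved from 0.082 to 0.45 and 7 of 7 genes passed as higher, but so did 46.7% of all probesets. Gfy then differed by 0.68 log2 units (limma adjusted p = 0.0023). Medians were lower in GFP+ arrays, as given above, so this scaling raises all values of GFP+ cells. After quantile normalization 0 of 7 passed, where 11.5% of all probesets were called higher. Stoml3 then had one and the same value on all arrays, which gives no difference to test.

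In odorant mice the 7 means were again higher in GFP+ cells, with a median difference of 0.16 against 0.10 over all probesets, and none passed. Pool by pool, the median of the 7 exceeded that of all probesets in odorant pool 1 (0.30 against 0.11). In odorant pools 2, 3 and 4 it lay slightly below, at 0.064, 0.062 and 0.059 against 0.082, 0.066 and 0.065. These medians include Stoml3, at the end of the scale, which differed by -0.019, -0.0065 and 0.059 in those pools. Rtp2 had the largest difference, at 15.36 ± 0.084 (SD, n = 4) in GFP+ cells and 15.11 ± 0.16 in GFP- cells, which is 0.25 log2 units (limma adjusted p = 0.34). Reep1 differed by 0.21 (limma adjusted p = 0.55), Ric8b by 0.19 (0.43), Umodl1 by 0.16 (0.61), Rtp1 by 0.13 (0.62), Gfy by 0.11 (0.69) and Stoml3 by 0.0075 (0.98). The 0 of 7 called stood beside 11.4% of all probesets (3.57% higher, 7.84% lower). An unadjusted p under 0.05 was reached by 0 of 7 and by 22.2% of all. All 4 GFP+ arrays lay above all 4 GFP- arrays for Rtp1, Rtp2 and Ric8b, 3 of 7, against 7.86% of all probesets. With array medians subtracted 5 of 7 passed (Rtp1, Rtp2, Ric8b, Gfy and Umodl1), beside 34.9% of all probesets called higher, and 0 of 7 passed with the intensity trend (3.6% of all higher) or after quantile normalization (5.7%).

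The arrays of each pool could also be compared directly. GFP+ exceeded GFP- in 8 of 8 pools for Rtp1, Rtp2 and Ric8b, 3 of 7, against 10.1% of all probesets. Gfy and Umodl1 were higher in 7 of 8 pools, Reep1 in 6 and Stoml3 in 3. Of the 56 differences, 47 were above 0, but the median over all probesets was above 0 in each pool as well (0.022 to 0.11). The 7 genes were read on the same arrays, so the 56 are not independent. The differences ran from 0.038 to 0.20 for Rtp1, from 0.040 to 0.41 for Rtp2 and from 0.13 to 0.41 for Ric8b. For Gfy they ran from 0.26 to 0.44 in the vehicle pools and down to -0.0083 in an odorant pool. Reep1 had the widest range, from -0.032 to 0.70, and Umodl1 ran from -0.018 to 0.56. A fit of both treatments together with the pool as a block, chosen after the data were seen, called Rtp2 (0.26, limma adjusted p = 0.042) and Ric8b (0.24, 0.045). The other 5 did not pass in it. They were Gfy at 0.21 (limma adjusted p = 0.093), Reep1 at 0.26 (0.10), Umodl1 at 0.22 (0.11), Rtp1 at 0.10 (0.36) and Stoml3 at 0.020 (0.87). That fit called 28.1% of all probesets (15.2% higher).

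**Figure D2:**
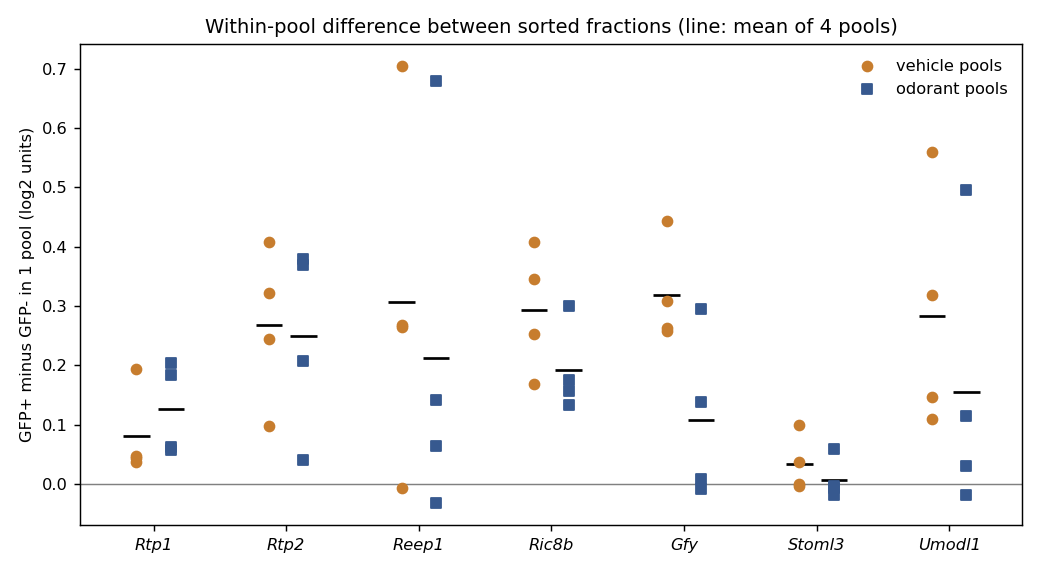
GFP+ minus GFP- difference (log2 units) within each of 8 pools for the 7 genes, with vehicle and odorant pools marked. Points above 0 are higher in GFP+ cells, as all 8 are for Rtp1, Rtp2 and Ric8b.

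Among the odorant pools, pool 1 stood apart in these differences. Their median over the 7 genes was 0.30 there, against 0.059 to 0.064 in the other odorant pools and 0.17 to 0.27 in the vehicle pools. The median over all probesets was 0.11 in odorant pool 1, 0.082, 0.066 and 0.065 in odorant pools 2, 3 and 4, and 0.022 to 0.11 in the vehicle pools. The median of the 7 genes thus exceeded that of all probesets in each vehicle pool but in only 1 of the 4 odorant pools. The shortfall in odorant pools 2, 3 and 4 was small and is not read as a result. Stoml3, with little room to differ, entered each median, and its own 0.059 was the median in odorant pool 4. The GFP- array of odorant pool 1 was the lowest of its group for 5 of the 7 genes, and that of odorant pool 2 was the highest for 5. Without GFP- replicate 1 the odorant differences fell to 0.088 for Reep1, 0.076 for Umodl1 and 0.061 for Gfy. On that array the mean of the immune cell markers was 11.57, against 10.24 to 10.55 on the other odorant GFP- arrays. Vehicle GFP- arrays had immune means of 10.62 to 11.73, so this level was not particular to that array. The mean of the sustentacular cell markers was 10.53 on it, against 9.47 to 9.76 on the other odorant GFP- arrays and 9.58 to 10.03 on the vehicle GFP- arrays. Their part in the values of these 7 genes was not tested.

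The second question was whether the odorant moved these genes, within GFP+ and within GFP- cells. No gene of the 7 passed in either fraction. In GFP+ cells the differences ran from -0.089 for Ric8b to 0.16 for Reep1 (95% interval -0.19 to 0.50). The 7 intervals lay between -0.39 and 0.50, or 0.763-fold to 1.415-fold, and every adjusted p was 1.00 to 2 decimals. In GFP- cells Reep1 differed by 0.25 (interval -0.16 to 0.66, limma adjusted p = 0.79) and Gfy by 0.18 (-0.12 to 0.49, 0.79). The size of the Reep1 difference moved with single arrays. In GFP- cells, leaving out odorant replicate 2 gave 0.12 and leaving out odorant replicate 1 gave 0.38. In GFP+ cells it was 0.078 without odorant replicate 2, 0.094 without vehicle replicate 3 and 0.25 without vehicle replicate 4. In GFP- cells the 5 genes other than Reep1 and Gfy were between -0.066 (Rtp1) and 0.056 (Umodl1). limma called 0% of all probesets in each fraction. The 7 genes had 0 with an unadjusted p under 0.05 in both, where 3.82% of all probesets had one in GFP+ cells and 6.84% in GFP- cells. The odorant and vehicle groups overlapped for each of the 7 genes in both fractions. All 4 odorant arrays lay above all 4 vehicle arrays for 1.38% of all probesets in GFP+ cells and 2.24% in GFP- cells.

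**Figure D3:**
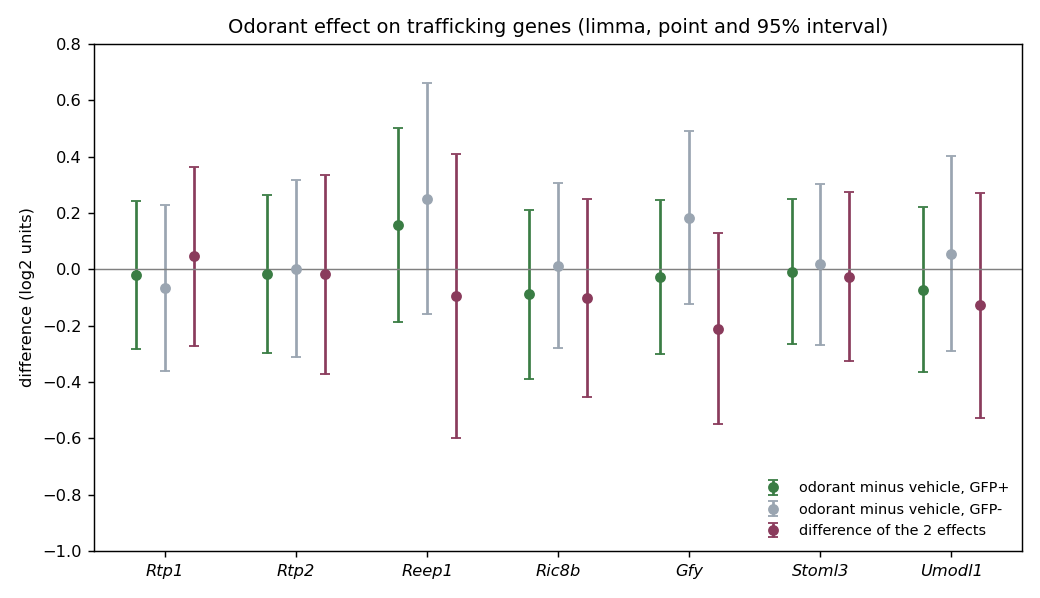
Odorant minus vehicle difference (log2 units) of the 7 genes in GFP+ and GFP- cells, with 95% intervals of the fit (4 arrays a group). All 14 intervals include 0, and the widest belong to Reep1.

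The interaction, which subtracts the odorant difference of the GFP- fraction from that of the GFP+ fraction, was -0.21 for Gfy (95% interval -0.55 to 0.13, limma adjusted p = 0.96). It was -0.13 for Umodl1, -0.10 for Ric8b and -0.095 for Reep1 (interval -0.60 to 0.41). Rtp1 (0.046), Stoml3 (-0.026) and Rtp2 (-0.018) lay nearer 0. limma called 0 of 7 (adjusted p 0.96 to 0.99) and 0% of all probesets, with 0 of 7 at an unadjusted p under 0.05 against 4.92%. The overlap of the Gfy and Umodl1 fractions with odorant but not with vehicle was therefore no tested difference between treatments. The group means fell in the order vehicle GFP+, odorant GFP+, odorant GFP- and vehicle GFP- for 5 of 7 genes, and no neighbouring pair in that order passed the test for any of the 7.

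The cargo of this transport was read from a list of transduction genes, chosen for their role. Among 8 transduction probesets (receptor cascade enzymes, G protein subunits and channels), 2 were higher in vehicle GFP+ cells, 0 were lower and the median difference was 0.11. Of all probesets, 7.76% were called higher there. Ano2, the calcium-activated chloride channel of the cilia, was at 17.12 ± 0.12 (SD, n = 4) against 16.55 ± 0.14 (0.57, limma adjusted p = 0.015). Adcy3, whose ciliary placement needs Gfy, was at 17.38 ± 0.026 against 16.98 ± 0.11 (0.41, adjusted p = 0.045). Gnal, the partner of Ric8b, differed by 0.20 (adjusted p = 0.30 in limma), and Cngb1, a channel subunit, was at background on all 16 arrays. In odorant mice Ano2 alone of the 8 passed (0.48, limma adjusted p = 0.049), beside 3.57% of all probesets called higher, and the median was 0.16. With array medians subtracted 5 of the 8 passed as higher with vehicle and 6 with odorant, beside 46.7% and 34.9% of all probesets. The intensity trend called 3 and 1 higher, beside 8.38% and 3.6%. Gnal passed with vehicle under both (limma adjusted p = 0.0055 with array medians subtracted and 0.048 with the trend).

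For ciliary transport, which carries cargo along the axoneme, 18 of 20 listed genes had a probeset. None was called in either treatment, beside 17.7% of all probesets with vehicle and 11.4% with odorant. Of the 18 differences, 15 in vehicle mice and 18 in odorant mice were above 0, with medians of 0.26 and 0.22. The median over all probesets was above 0 as well, at 0.082 and 0.10. With array medians subtracted 15 of 18 passed as higher with vehicle and 14 with odorant, beside 46.7% and 34.9% of all probesets. The intensity trend called 2 with vehicle and 0 with odorant, beside 8.38% and 3.6% of all probesets called higher. The fit within 8 pools called 4, beside 15.2% called higher. The 4 with the smallest p in vehicle mice were Tulp3 (0.50, limma adjusted p = 0.071), Ift122 (0.41, 0.075), Bbs1 (0.36, 0.094) and Cep290 (0.44, 0.12). Tulp3 and Ift122 take part in bringing membrane proteins into cilia and Bbs1 is a BBSome subunit.

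Among 16 probesets for folding in and export from the endoplasmic reticulum, the median vehicle difference was -0.015. Sec24d, a cargo adaptor of COPII coats, was 0.64 higher in GFP+ cells (limma adjusted p = 0.026). It was the 1 of 16 called with vehicle, beside 17.7% of all probesets. With odorant its difference was 0.30 and did not pass (0.22). With array medians subtracted Sec24d passed with odorant (0.62, limma adjusted p = 0.011), beside 34.9% of all probesets called higher. In vehicle mice, as deposited, its relative Sec24a differed by 0.64 and did not pass (0.073), nor did Pdia6, a disulphide isomerase, at -0.20 (0.41). In odorant mice Xbp1, a transcription factor of the unfolded protein response, was lower by 0.51 log2 units in GFP+ cells (limma adjusted p = 0.049). It was the 1 probeset of the 16 called there, beside 11.4% of all probesets. With array medians subtracted its fall was 0.19 and did not pass (0.29). With vehicle Xbp1 differed by -0.39 and did not pass (limma adjusted p = 0.12). These lists had 0 called probesets in both odorant comparisons and in the interaction.

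Among 12 probesets of paralogs of the 7 genes, 4 (Rtp3, Rtp4, Reep2 and Umod) were at background on all 16 arrays. Reep5, a widely expressed relative of Reep1, was at 5.29 ± 0.24 (SD, n = 4) in vehicle GFP+ cells, at background, and at 8.01 ± 0.22 in GFP- cells. With the background level in place of values under it, the GFP+ level of Reep5 was at least 2.56-fold lower than the GFP- level, and at least 2.10-fold lower with odorant. These bounds were not tested. The fit of the deposited values gave a vehicle difference of -2.72 log2 units (limma adjusted p = 2.5e-06). Reep4 was lower by 0.71 log2 units in odorant GFP+ cells (limma adjusted p = 0.024), a call lost with array medians subtracted (0.086) and after quantile normalization (0.11). With vehicle Reep4 differed by -0.67 and did not pass (limma adjusted p = 0.14). Stom, the namesake of the stomatin family, was at 18.78 and 18.65 in vehicle GFP+ and GFP- cells (adjusted p = 0.54 in limma), and Stoml1 was 0.40 higher in GFP+ cells (0.11).

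**Figure D4:**
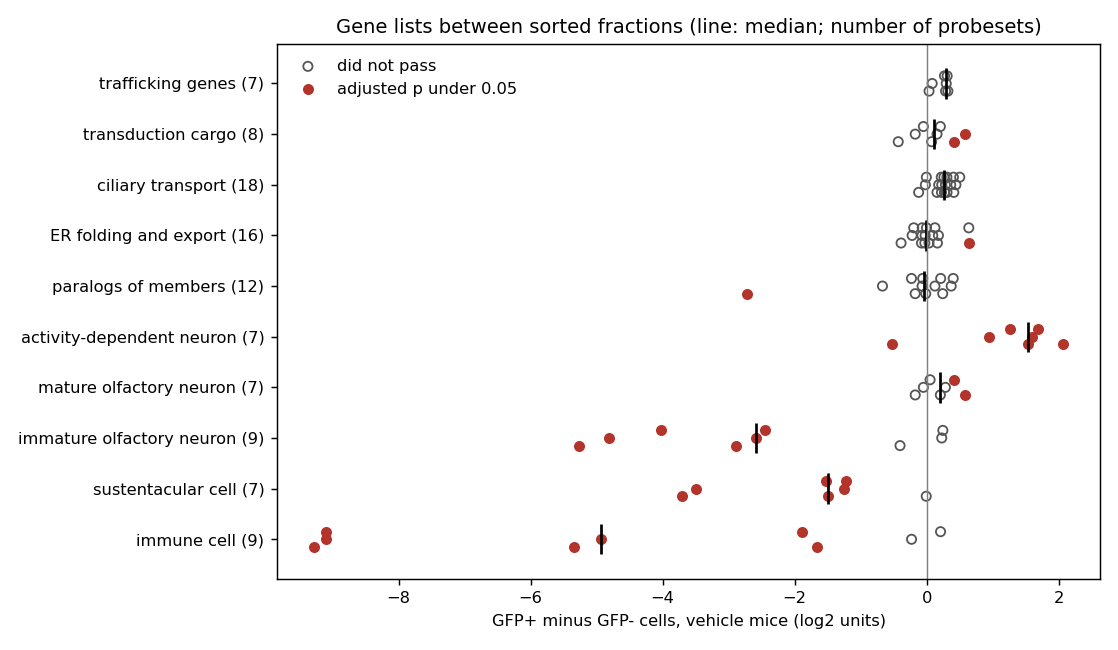
GFP+ minus GFP- difference (log2 units) of each probeset in the 7 genes and in related gene lists, for vehicle mice, with the median of each list. The 7 genes and ciliary transport lie mostly above 0, and Reep5 is the lowest of the paralogs.

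The 2 fractions differed widely in other cell types. Of all probesets, limma called 7.76% higher and 9.97% lower in vehicle GFP+ cells. Immature neuron markers were lower in vehicle GFP+ cells for 6 of 9 probesets, with list means of 9.48 to 9.80 in GFP+ and 11.9 to 12.3 in GFP- arrays. Immune markers were lower for 7 of 9 (means 6.28 to 6.97 and 10.6 to 11.7), and their defining gene Ptprc was at background in GFP+ cells, at least 22.1-fold lower. Sustentacular markers were lower for 6 of 7, microvillar and tuft cell markers for 7 of 7 and progenitor markers for 5 of 6. At background on all 16 arrays were 1 sustentacular, 1 microvillar or tuft cell and 3 progenitor probesets. Neurog1 and Cdk1 were among these, so their calls as lower compare values under background. Bowman gland markers were lower for 3 of 6, with 2 at background on all 16 arrays, as were the 5 horizontal basal cell markers. Of 7 mature neuron markers 2 were higher in GFP+ cells (Ano2 and Adcy3, which the transduction list also holds), while Omp differed by 0.049 (limma adjusted p = 0.82). With array medians subtracted 5 of the 7 passed as higher, beside 46.7% of all probesets, and Omp differed by 0.41 (limma adjusted p = 0.023). With the intensity trend 4 passed, beside 8.38% of all probesets, and after quantile normalization Omp differed by -0.041. Of 7 activity-dependent genes 6 were higher in GFP+ cells and 1 was lower. S100a5 was at 15.97 ± 0.26 (SD, n = 4) in vehicle GFP+ cells and 15.04 ± 0.15 in GFP- cells, and Kirrel2, an axonal adhesion protein, at 14.73 ± 0.15 and 13.14 ± 0.31. Of 16 immediate early probesets 11 were lower in GFP+ cells, and 3 of the 16 were at background on all 16 arrays. Alas2, the 1 red blood cell marker of 4 with a probeset, was also lower. The part of cells other than mature neurons in the GFP- values of the 7 genes was not tested.

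Each of the 7 was also set against 8548 probesets for likeness of pattern, measured as the root mean square distance between mean-centred log2 values over 16 arrays. This is a description, and small distances come easily to probesets that vary little. The probesets nearest Rtp1 were Omp (0.052), Psap (0.065) and Syp (0.071), beside a spread of Rtp1 itself of 0.079. Those nearest Rtp2 were Sdf4 (0.083), Stx12 (0.085) and Ssbp2 (0.090), and those nearest Ric8b were Ptdss2 (0.063), Gpm6a (0.070) and Fgf12 (0.080). Gfy lay nearest Gnal (0.076), Gorasp2 (0.083) and Fstl5 (0.085). Umodl1 lay nearest Cadps (0.075), Wdr47 (0.085) and Clstn2 (0.086). Reep1, the most variable, lay nearest Sec14l1 (0.085), Mettl4 (0.11) and Dnajc6 (0.13), against its own spread of 0.26. For Stoml3 the nearest, Plekhb1 (0.058), Hp1bp3 (0.063) and Atp5b (0.065), lay further off than its own spread of 0.026, so no likeness is read from them.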

How the data were processed

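The deposited values are log2 probeset signals that the authors made with Affymetrix Expression Console, per the submitters' processing notes. Its version and its background, normalization and summarization methods were not given in the sources used here. RNA was labelled as biotinylated cRNA from 50 to 100 ng of total RNA, per the labels. Of 28846 probesets, 6640 controls were left out, and of the other 22206, 19572 carried 1 symbol and 2634 none. Values were used as deposited.

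The 5 comparisons (odorant against vehicle in each fraction, GFP+ against GFP- in each treatment, and the interaction) were fitted with limma 3.58.1 in R 4.3.3 (lmFit and eBayes, two-sided). P-values were adjusted by Benjamini-Hochberg over 22206 probesets with a threshold of 0.05. Comparisons within a treatment or fraction used 8 arrays and the interaction 16. The fits were tested on simulated data. Errors are SDs over 4 arrays or SEs of the fit, and the number of arrays limits the precision. Pools of a treatment held separate mice, per the labels.

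The 7 genes and the lists were chosen with earlier results of these data known. Named genes were the 7, the members of each related list with the smallest p in vehicle mice, the 3 nearest probesets of each gene, and Omp, S100a5 and Kirrel2. Stom, Rtp3, Rtp4 and Umod were named after their values were seen. Pairing was checked by correlating values centred within groups. Same-numbered GFP+ and GFP- arrays gave r of 0.11 to 0.16 with vehicle and 0.014 to 0.36 with odorant, and they share mice by the pool count. Same-numbered odorant and vehicle arrays gave -0.034 to 0.25 for GFP+ and -0.10 to 0.31 for GFP- and were not treated as paired. Alternatives were array medians subtracted, quantile normalization, the intensity trend, no dim probesets, the replicate block and leaving out each array. Python 3.11.15 with matplotlib 3.10.9 made the plots.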

Additional observations from a re-analysis of the deposited data

Results flagged for a closer look

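Within groups of 4 arrays, 2 of the 28 combinations of gene and group held an array far from the others, both of Stoml3. In odorant GFP- cells, replicate 4 was lowest at 19.35, with a gap to its neighbour of 0.8427 of the group's range. In vehicle GFP+ cells, replicate 4 was highest at 19.44, with a gap of 0.8294 of the range, just over Dixon's 95% critical value. Chance passes that value in about 1 in 20 groups. Stoml3 spans 0.099 log2 units over 16 arrays.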

How the results depend on the processing

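Of 464 alternative fits of single genes, 424 kept direction and side of the threshold, 20 came to pass and 20 changed sign, the largest of these at a size of 0.0514. These counts include the same fit of both treatments under each of the 2 fraction comparisons, so its results, with 2 genes passing, are repeated. Genes called between fractions with vehicle rose from 0 to 7 with array medians subtracted and to 4 with the intensity trend. With odorant they rose from 0 to 5 under the first of these. The fit of both treatments with the pool as a block called 2, which belong to neither treatment alone. The replicate block gave 0 of 7 in each comparison, so this pairing changed no call among them.

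Signs changed under quantile normalization for the odorant difference of Rtp1 (0.010) and Rtp2 (0.011) in GFP+ cells, of Rtp1 in GFP- cells (0.038) and for its interaction (-0.028). With array medians subtracted the Rtp1 interaction was -0.0018. Over fits without single arrays, the GFP+ odorant difference ran from -0.048 to 0.035 for Rtp2 and from -0.070 to 0.0053 for Gfy. In GFP- cells it ran from -0.020 to 0.041 for Ric8b, from -0.026 to 0.13 for Umodl1 and from -0.048 to 0.071 for Rtp2. The odorant fraction difference of Stoml3 ran from -0.0089 to 0.015. The interaction ran from -0.075 to 0.051 for Rtp2 and from -0.25 to 0.038 for Reep1. The cause was not tested.

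Over all probesets, 3936 calls between fractions with vehicle became 12050 with array medians subtracted. With odorant, 2535 became 9277 with array medians subtracted and, without dim probesets, 1671 of 10845. The fit of both treatments within pools called 6241. Without vehicle GFP+ replicate 4, 3 probesets passed for the odorant in GFP+ cells.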
